A study of Mus musculus with 9 samples.

Results

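The genes described here encode immune-restraining surface proteins other than the ligands of PD-1. They were chosen by symbol from a fixed list of checkpoint and don't-eat-me proteins, and comprise 10 of the 49671 genes counted: Cd47, Cd24a, Cd200, Cd276, Vsir, Pvr, Nectin2, Nectin3, Tnfrsf14 and Ceacam1. RNA was sequenced from cells of the melanocyte lineage sorted from mouse dermis as KIT-positive and CD45-negative, where KIT is a receptor of that lineage and CD45 marks immune cells. By its title, the study is about PD-L1, a ligand of PD-1, in melanocyte stem cells (McSC) at rest and with age. Melanoblasts, the precursors found in developing hair follicles, were taken from C57BL/6J pups at postnatal day 0.5 (n = 3 libraries). Adult quiescent McSC came from C57BL/6J mice of 8 to 10 weeks (n = 4), and aged quiescent McSC from C57BL/6 mice of 24 months (n = 2). All mice were wild-type females. Adult and aged skin was taken at telogen, when the hair follicle rests and holds McSC but no differentiated melanocytes. The aged mice came from another colony at 21 months and then lived in the same facility as the others, so colony and age cannot be told apart. Each library is a pool of cells from several mice, and p-values therefore measure the spread between pools.

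Surface proteins of this kind bind receptors on leukocytes that dampen engulfment, activation or killing. CD47 binds SIRP-alpha on phagocytes and CD24 binds a Siglec receptor, both known as don't-eat-me signals, while CD200 binds a receptor of myeloid cells. VISTA, the product of Vsir, and B7-H3, the product of Cd276, are relatives of the B7 family that restrain T cells, and PVR and nectin-2 are bound by TIGIT on T and NK cells. Several of them are also adhesion molecules, and CD200 is known as a marker of hair follicle bulge cells.

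Total counts ran from 12594770 to 33710117 per library, lowest in the aged libraries, and mitochondrial rRNA held 21.5% to 37.6% of them. Melanoblast replicate 3 and adult replicates 1 and 2 lay away from the rest of their groups in a principal component analysis, and values without them are given where they matter. Kit averaged 2733, 985 and 790 CPM (counts per 1000000 counts of the library, scaled with TMM factors) in melanoblast, adult and aged libraries, against 1.70, 5.74 and 6.89 CPM for Ptprc, the gene of CD45. The melanocyte lineage markers summed to 14480 to 26270, 4480 to 10930 and 7487 to 8998 CPM in the same order. In bulk RNA of this kind, fewer cells of a type and less RNA per cell cannot be told apart.

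The members lie on 5 chromosomes of build mm10. Cd200 (16:45382135-45409053, minus strand), Nectin3 (16:46387706-46498525, minus) and Cd47 (16:49800533-49915010, plus) share 4.53 Mb of chromosome 16. Nectin2 (7:19716644-19750483, minus) and Pvr (7:19903578-19921160, minus) are 153095 bases apart on chromosome 7, which also holds Ceacam1 (7:25461707-25477603, minus). Cd24a (10:43578284-43584265, plus) and Vsir (10:60346851-60372684, plus) are on chromosome 10, Cd276 (9:58524298-58555437, minus) on chromosome 9 and Tnfrsf14 (4:154921933-154928563, minus) on chromosome 4. Gene identifiers are ENSMUSG00000022661 for Cd200, ENSMUSG00000055447 for Cd47, ENSMUSG00000047139 for Cd24a, ENSMUSG00000020101 for Vsir and ENSMUSG00000035914 for Cd276. Those of the others are ENSMUSG00000040511 for Pvr, ENSMUSG00000062300 for Nectin2, ENSMUSG00000022656 for Nectin3, ENSMUSG00000042333 for Tnfrsf14 and ENSMUSG00000074272 for Ceacam1.

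RefSeq promoter windows (GRCm38.p6, 250 bases before to 50 after the start) were found for 8 members. The windows of Cd200, the member that differed between ages, and of Cd276 and Vsir, which moved in opposite directions between melanoblasts and adult McSC, are shown 5′ to 3′ on the strand of the gene. Capitals mark matches, on either strand, to the 6 motifs searched: the E-box CACGTG, the M-box core CATGTG, the GAS motif TTCNNNGAA, the ISRE core GAAANNGAA, the AP-1 motif TGANTCA and the GC box GGGCGG.
Cd200, chr16:45409004-45409303, minus: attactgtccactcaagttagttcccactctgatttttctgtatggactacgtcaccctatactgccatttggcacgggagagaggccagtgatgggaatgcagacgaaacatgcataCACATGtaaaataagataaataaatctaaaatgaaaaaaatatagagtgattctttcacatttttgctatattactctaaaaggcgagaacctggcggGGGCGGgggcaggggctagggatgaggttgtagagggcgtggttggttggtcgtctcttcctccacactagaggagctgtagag
Cd276, chr9:58554984-58555283, minus: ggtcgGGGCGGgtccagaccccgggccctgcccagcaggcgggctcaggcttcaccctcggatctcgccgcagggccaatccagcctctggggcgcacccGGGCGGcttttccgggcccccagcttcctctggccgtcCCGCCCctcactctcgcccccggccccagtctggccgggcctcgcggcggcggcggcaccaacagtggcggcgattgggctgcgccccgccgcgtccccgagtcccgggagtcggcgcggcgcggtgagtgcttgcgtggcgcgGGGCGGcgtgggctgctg
Vsir, chr10:60346601-60346900, plus: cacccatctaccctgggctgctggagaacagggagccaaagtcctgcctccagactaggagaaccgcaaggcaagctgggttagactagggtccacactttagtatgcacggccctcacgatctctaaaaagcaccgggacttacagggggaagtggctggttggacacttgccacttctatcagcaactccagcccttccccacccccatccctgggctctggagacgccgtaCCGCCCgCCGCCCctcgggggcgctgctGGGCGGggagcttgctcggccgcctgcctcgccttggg
The Cd200 window held the M-box core on the strand opposite to the gene. It is printed as CACATG, starting at -132, and a match was present in 14.2% of 32851 mouse promoters. The GC content of the Cd200 window was 45.0%, against 78.3% for Cd276, 63.7% for Vsir and a median of 52.7% over all promoters. The final bases of the Cd276 and Ceacam1 windows were found in no annotated transcript of their genes, while those of Cd200 and Vsir were. GC boxes were present in 6 of the 8 members with a window and in 35.7% of all promoters. Among the members, the E-box (7.2% of all promoters) was found in Ceacam1 only and the ISRE core (8.6%) in Tnfrsf14 only, and neither GAS (8.3%) nor AP-1 (7.8%) was found in any. A match is a description of letters and not a binding site.

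Per length of transcript, Cd47 was the highest member in all 3 groups, at 51.9 ± 14.2 (SD, n = 3), 41.5 ± 3.36 (SD, n = 4) and 30.8 ± 2.29 (SD, n = 2) CPM per kilobase of exon in melanoblasts, adult McSC and aged McSC. Cd200 was next in melanoblasts at 33.6 ± 9.76 (SD, n = 3), with libraries that overlapped those of Cd47, and next in adult McSC at 23.0 ± 3.61 (SD, n = 4), where it overlapped Cd24a at 20.1 ± 3.38 (SD, n = 4). In aged McSC Cd200 stood at 8.48 ± 1.28 (SD, n = 2), below Cd24a at 18.2 ± 7.12 (SD, n = 2) and overlapping Pvr at 9.78 ± 2.98 (SD, n = 2). Cd24a was in 5th place in melanoblasts, at 7.79 ± 4.21 (SD, n = 3), where the neighbours from Nectin3 through Pvr and Cd24a to Ceacam1 overlapped and Ceacam1 lay apart from Cd276 below it. The lowest place was held by Vsir in melanoblasts (0.441 ± 0.100, SD, n = 3) and by Cd276 in adult (1.215 ± 0.163, SD, n = 4) and aged McSC (1.65 ± 0.257, SD, n = 2). From Nectin2 down, the low members of adult McSC overlapped each neighbour in the order, and so did those from Ceacam1 down in aged McSC.

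**Figure D1:**
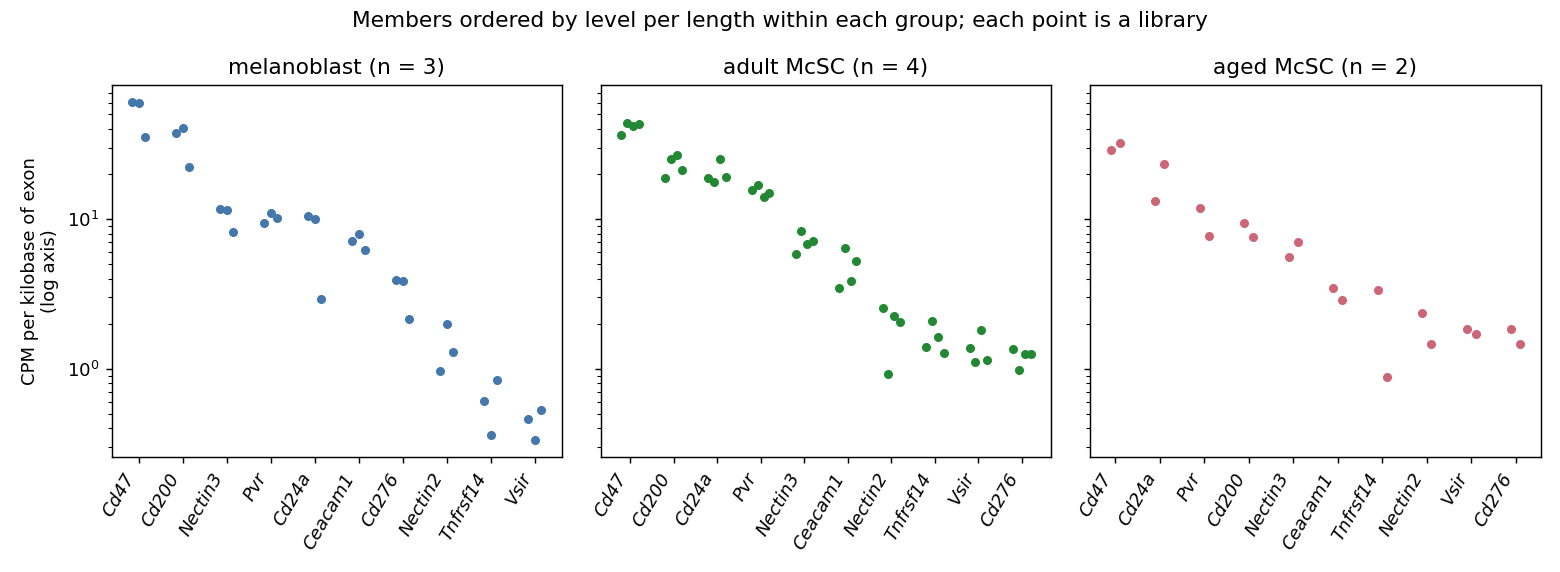
Level of each member per length (CPM per kilobase of exon, log axis) in melanoblast, adult McSC and aged McSC libraries, ordered by the group mean; each point is a library. Cd47 leads every panel, and Cd200 moves from 33.6 in melanoblasts to 8.48 in aged McSC.

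All 10 members passed the filter on low counts, which kept 31961 genes. Between melanoblasts and adult McSC, 3 members were higher in adult McSC (Vsir, Cd24a and Pvr) and 2 were lower (Cd276 and Nectin3) by edgeR's quasi-likelihood test with Benjamini-Hochberg adjustment over all genes tested, where 15.1% of genes were higher and 18.3% lower. Counted by libraries that did not overlap, 4 members were higher and 1 lower, against 19.5% and 19.8% of all genes. Between adult and aged McSC only Cd200 was called, as lower, and no member was called higher, against 0.25% and 0.0532% of all genes. The 3275 genes with an unadjusted p under 0.05 in that comparison included Pvr and Ceacam1 besides Cd200, and DESeq2 and limma voom also called Cd200 alone, as lower. Libraries did not overlap for 1 member higher in aged McSC (Cd276) and 4 lower (Cd200, Cd47, Pvr and Ceacam1), against 15.5% and 12.1% of all genes. Between melanoblasts and aged McSC, 3 members were higher in aged McSC and 5 lower by the same test, against 20.4% and 20.3% of all genes, and the same counts of 3 and 5 did not overlap, against 40.4% and 25.7%. The median log2 fold change of the members was 0.07, -0.15 and -0.40 in the 3 comparisons, in that order, beside 0.39, 0.08 and 0.70 over all genes tested. The comparisons share libraries and are not independent of each other.

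These directions depend on the scaling. With factors taken from abundant genes, the median of all genes moved up by 0.78 log2 in adult McSC against melanoblasts, by 0.29 in aged against adult McSC and by 1.06 in aged McSC against melanoblasts. The member counts then became 6 higher and 0 lower, 0 higher and 1 lower, and 7 higher and 1 lower. Over all genes the same change of factors moved the split in adult McSC against melanoblasts from 4836 higher and 5840 lower to 10574 and 1840, in aged McSC against melanoblasts from 6514 and 6491 to 14903 and 1799, and in aged against adult McSC from 17 and 80 to 22 and 23. Without melanoblast replicate 3, which had the lowest level of its group for 6 members, 4 members were higher and 5 lower in adult McSC than in melanoblasts. Without adult replicate 1 these counts were 3 and 1.

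**Figure D2:**
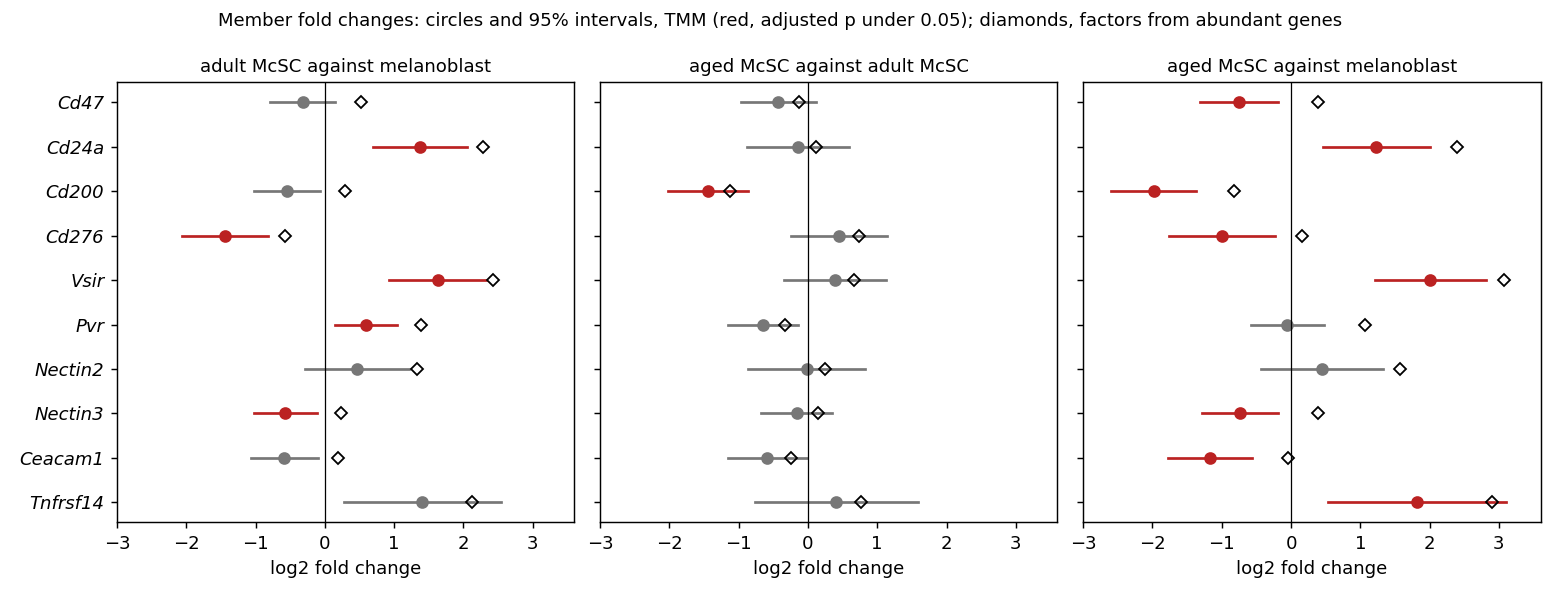
Log2 fold change of each member in the 3 comparisons, with circles and 95% intervals for TMM scaling (red where the adjusted p is under 0.05) and open diamonds for factors from abundant genes. Cd200 is the only red circle in aged against adult McSC, at -1.44, and the diamonds lie to the right of the circles in every panel.

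Among the don't-eat-me signals, Cd24a rose between melanoblasts and adult McSC and Cd47 did not pass the test. Cd24a, a small sugar-rich protein anchored by lipid and also carried by epithelial and blood cells, was at 26.95, 25.75 and 7.58 CPM in melanoblast replicates 1 to 3. The adult libraries held 48.2, 45.8, 64.9 and 49.0 CPM and the aged libraries 34.0 and 60.0 CPM. Every adult and aged library thus lay above every melanoblast library, and melanoblast replicate 3 was far below the rest. Cd24a was 2.59-fold higher in adult McSC (95% interval 1.62 to 4.14, adjusted p = 0.00258) and 2.34-fold higher in aged McSC (1.37 to 3.99, adjusted p = 0.0128) than in melanoblasts. Without melanoblast replicate 3 the log2 fold changes went from 1.37 to 0.98 and from 1.23 to 0.83 and both stayed past the threshold, and without aged replicate 2 the call for aged McSC was lost (0.88, adjusted p = 0.148). In aged against adult McSC the log2 fold change of Cd24a was -0.15 (95% interval -0.88 to 0.59). Keratinocyte and hair follicle markers moved with Cd24a: all 15 were higher in adult and in aged McSC than in melanoblasts, none was at 0 in any group, and they summed to 106 to 315, 1382 to 2917 and 1153 to 1315 CPM. Melanoblast replicate 3 was lowest and adult replicate 3 highest in both that sum and Cd24a. Within melanoblasts and within adult McSC, all libraries ranked alike in both. The aged library with more Cd24a had the smaller sum. The part of other cell types in the Cd24a difference was not tested. Some reads of Cd24a may be shared with 2 processed pseudogenes whose sequence is up to 96.8% identical.

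Cd47, a membrane protein with an immunoglobulin domain, was at 381, 374 and 223 CPM in melanoblasts, 229, 275, 265 and 272 CPM in adult McSC and 183 and 203 CPM in aged McSC. Melanoblast replicate 3 lay below every adult library, the other melanoblast libraries above them, and both aged libraries below all others. The log2 fold change was -0.32 (95% interval -0.79 to 0.14, adjusted p = 0.265) in adult McSC against melanoblasts and -0.43 (-0.96 to 0.11, adjusted p = 0.571) in aged against adult McSC. The former was called lower with limma voom (-0.44, adjusted p = 0.0246) and without melanoblast replicate 3 (-0.54, adjusted p = 0.0388), but higher with factors from abundant genes (0.52, adjusted p = 0.00751). Aged McSC held 1.69-fold less Cd47 than melanoblasts (log2 -0.75, SE 0.275, adjusted p = 0.0321), a call kept in 7 of 19 alternative settings. With 1 library left out it was kept only without melanoblast replicate 3 (-0.97) or adult replicate 2 (-0.75). The aged direction turned with factors from abundant genes, to 0.39 (adjusted p = 0.0426).

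Cd200, a membrane glycoprotein that signals to myeloid cells, fell between adult and aged McSC. It was at 125, 135 and 74.5 CPM in melanoblasts, 62.5, 83.2, 89.1 and 70.6 CPM in adult McSC and 31.2 and 25.2 CPM in aged McSC. Melanoblast and adult libraries overlapped through melanoblast replicate 3, whereas both aged libraries lay below all 7 others. Aged McSC had 2.71-fold less Cd200 than adult McSC (log2 -1.44, SE 0.282, 95% interval -2.02 to -0.86, adjusted p = 0.0188) and 3.96-fold less than melanoblasts (log2 -1.98, SE 0.299, adjusted p = 2.15e-05). The comparison of adult McSC with melanoblasts gave -0.55 (adjusted p = 0.0682), or -0.77 (adjusted p = 0.00562) without melanoblast replicate 3 and 0.29 with factors from abundant genes. The fall with age had the same direction in all 19 alternative settings, between -1.63 and -1.12, and passed in 16. It was lost without adult replicate 3 (-1.35, adjusted p = 0.089), without aged replicate 1 (-1.63, adjusted p = 0.0579) and without aged replicate 2 (-1.25, adjusted p = 0.928). Schwann cell markers (4 of 9) and fibroblast markers (4 of 10) were also lower in aged than in adult McSC, with sums of 141 to 211 against 544 to 794 CPM and of 130 to 243 against 509 to 962 CPM. The keratinocyte and hair follicle sum was also lower in both aged libraries (1153 and 1315 CPM) than in all adult libraries (1382 to 2917 CPM), though none of its 15 markers was called between these ages. Krt15, a keratin of bulge cells named here after its values were seen, was at 205 to 522 CPM in adult and 132 and 104 CPM in aged libraries. Krt5 and Col17a1 of the same list were also lower in both aged libraries than in all adult libraries. Krt10 and Sfn were higher in both. Krt10 was at 10.99 to 14.36 CPM in adult and 23.25 and 20.6 CPM in aged libraries. Sfn was at 15.31 to 23.56 CPM in adult and 25.27 and 46.94 CPM in aged libraries. The other markers of that list overlapped between these ages. No marker of the 3 lists was at 0 in any group, and their part in the Cd200 difference was not tested.

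**Figure D3:**
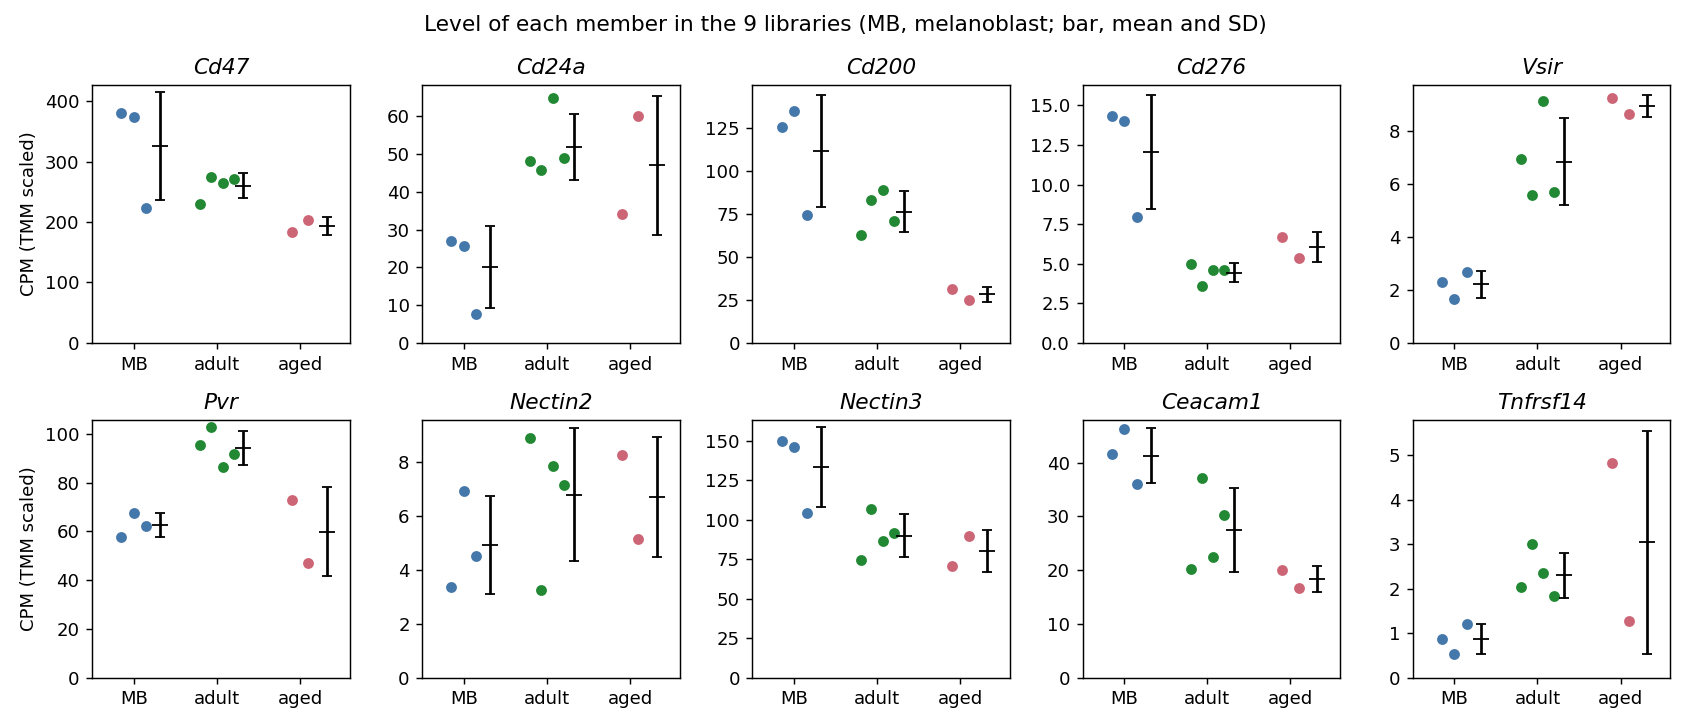
Level of each member (TMM-scaled CPM, axes from 0) in 3 melanoblast (MB), 4 adult and 2 aged libraries, one point per library, with the mean and SD at the right of each group. Both aged libraries of Cd200, at 31.2 and 25.2 CPM, lie below all others, and the melanoblast libraries of Vsir lie below all others.

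The B7 relatives moved in opposite directions. Vsir was at 2.30, 1.67 and 2.66 CPM in melanoblasts, 6.94, 5.56, 9.12 and 5.70 CPM in adult McSC and 9.22 and 8.62 CPM in aged McSC. All melanoblast libraries lay below all others, and adult and aged libraries overlapped. Vsir was 3.09-fold higher in adult McSC (95% interval 1.89 to 5.05, adjusted p = 0.000747) and 4.03-fold higher in aged McSC (2.32 to 7.01, adjusted p = 0.000296) than in melanoblasts, and both calls held in all 19 alternative settings. Aged against adult McSC gave 0.39 on the log2 scale (95% interval -0.35 to 1.12). VISTA is known mainly from myeloid and T cells, and the macrophage and dendritic cell markers summed to 32.05 to 49.9, 48.4 to 69.6 and 70.8 to 94.1 CPM in melanoblast, adult and aged libraries, with 3 of 13 higher in adult and 7 of 13 higher in aged McSC than in melanoblasts. T and NK cell markers summed to 2.76 to 7.78, 8.77 to 23.1 and 19.8 to 22.8 CPM in the same order. No marker of either list was at 0 in all libraries of a group, but Nkg7, Klrd1 and Cd2 were at 0 in some melanoblast libraries. The part of these cells in the Vsir difference was not tested. Olfactory and vomeronasal receptor genes, used here as a rough measure of background, also rose. Their 95th percentile was 0.850, 1.94 and 2.36 CPM in the same order, below the Vsir means of 2.21, 6.83 and 8.92 CPM. Of the T and NK cell markers, Cd2, Trdc, Il7r, Nkg7, Klrd1 and Ncr1 were below that percentile of their group in every library. Cd3d, Cd3e, Cd3g and Lck were above it in some libraries. Of the macrophage and dendritic cell sum, Cd68 alone gave 14.28 to 26.5, 17.17 to 30.83 and 33.92 to 42.01 CPM in the same order. The part of the background rise in the Vsir difference and in these marker sums was not tested.

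Cd276 was at 14.3, 14.02 and 7.93 CPM in melanoblasts, 4.99, 3.59, 4.58 and 4.62 CPM in adult McSC and 6.71 and 5.38 CPM in aged McSC. The 3 groups did not overlap, with aged McSC between the others. Cd276 was 2.71-fold lower in adult McSC than in melanoblasts (log2 -1.44, SE 0.299, adjusted p = 0.00062), a call kept in 18 of 19 settings and lost with factors from abundant genes (-0.57, adjusted p = 0.148). In aged McSC it was 1.99-fold lower than in melanoblasts (log2 -1.0, adjusted p = 0.0348), kept in 9 of 19 settings, and with factors from abundant genes its direction turned (0.16). The call for aged McSC was lost without melanoblast replicate 1 or 2 (adjusted p = 0.107 and 0.09), adult replicate 1 (0.0617) or aged replicate 1 or 2 (0.116 and 0.274). Aged against adult McSC gave 0.45 (95% interval -0.25 to 1.14, adjusted p = 0.662). Between melanoblasts and adult McSC, 5 of 10 fibroblast markers were lower and 2 higher, and 8 of 10 melanocyte lineage markers were lower and 0 higher. In aged McSC 7 of 10 of each list were lower than in melanoblasts. Fibroblast markers summed to 588 to 2145, 509 to 962 and 130 to 243 CPM in melanoblast, adult and aged libraries. Melanoblast replicate 3 was lowest of its group in Cd276 and in both sums. The part of either in the Cd276 difference was not tested.

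Of the nectin family, Pvr was higher and Nectin3 lower in adult McSC than in melanoblasts. Pvr, the receptor bound by TIGIT, CD96 and CD226, was at 57.6, 67.4 and 62.2 CPM in melanoblasts, 95.5, 103, 86.4 and 91.5 CPM in adult McSC and 72.8 and 47.0 CPM in aged McSC. The adult libraries lay above all others, and the aged libraries fell on either side of the melanoblast range. Pvr was 1.51-fold higher in adult McSC than in melanoblasts (95% interval 1.11 to 2.05, adjusted p = 0.0366). The direction held in all 19 alternative settings, with log2 values of 0.54 to 1.39, and the call in 12. It was lost without melanoblast replicate 1 or 2 (adjusted p = 0.125 and 0.0691) and without adult replicate 2, 3 or 4 (adjusted p = 0.0555, 0.0595 and 0.0712), and also with RLE factors (0.0654) and with the replicate block (0.0775). Keratinocyte and Schwann cell marker sums were likewise higher in all adult than in all melanoblast libraries, and their part in the Pvr difference was not tested. In aged against adult McSC the difference in Pvr was -0.65 on the log2 scale (95% interval -1.16 to -0.14, unadjusted p = 0.0147, adjusted p = 0.389), and it was -1.03 without aged replicate 1 and -0.33 without aged replicate 2.

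Nectin3, an adhesion molecule that pairs with other nectins across cell contacts, was at 149.9, 146 and 105 CPM in melanoblasts, 74.3, 107, 86.7 and 91.7 CPM in adult McSC and 70.8 and 89.7 CPM in aged McSC. Melanoblast replicate 3 lay just below adult replicate 2, and the aged libraries fell within the adult range except for the lower one. Nectin3 was lower in adult McSC (log2 -0.57, SE 0.217, adjusted p = 0.0444) and in aged McSC (log2 -0.74, SE 0.267, adjusted p = 0.0312) than in melanoblasts. The adult call was kept in 4 of 19 settings, and with 1 library left out only without melanoblast replicate 3 (-0.72) or adult replicate 2 (-0.66). The aged call was lost without melanoblast replicate 1 or 2 (adjusted p = 0.0954 and 0.0903), adult replicate 4 (0.0503) or aged replicate 1 or 2 (0.267 and 0.0907), and both directions turned with factors from abundant genes (0.24 and 0.39). Nectin2, a ligand of TIGIT and PVRIG, was at 3.36, 6.93 and 4.52 CPM in melanoblasts, 8.92, 3.25, 7.88 and 7.16 CPM in adult McSC and 8.29 and 5.15 CPM in aged McSC. Its groups overlapped throughout, and its log2 fold changes of 0.46, -0.01 and 0.45 did not pass (adjusted p = 0.335, 0.993 and 0.402). With factors from abundant genes Nectin2 was called higher in adult McSC (1.33, adjusted p = 0.0293) and in aged McSC (1.57, adjusted p = 0.0194) than in melanoblasts.

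Ceacam1, an inhibitory adhesion molecule that binds itself and TIM-3, was at 41.6, 46.3 and 36.0 CPM in melanoblasts, 20.2, 37.2, 22.4 and 30.3 CPM in adult McSC and 20.0 and 16.6 CPM in aged McSC. The aged libraries were below all others, and adult replicate 2 reached the melanoblast range. Ceacam1 was 2.25-fold lower in aged McSC than in melanoblasts (log2 -1.17, SE 0.295, adjusted p = 0.00333), a call kept in 16 of 19 settings. It was lost without aged replicate 2 (-0.92, adjusted p = 0.0743) and was -0.05 with factors from abundant genes. The differences of -0.59 between adult McSC and melanoblasts and of -0.59 between aged and adult McSC did not pass (adjusted p = 0.057 and 0.48). Ceacam1 shares 1630 aligned bases with Ceacam2 at 98.8% identity, so its level is uncertain. Ceacam2 itself averaged 2.595, 2.70 and 2.83 CPM.

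Tnfrsf14, the gene of HVEM, which binds BTLA and CD160, was the member with the fewest counts, 10 to 119 per library. It was at 0.871, 0.521 and 1.20 CPM in melanoblasts, 2.03, 2.99, 2.35 and 1.83 CPM in adult McSC and 4.81 and 1.27 CPM in aged McSC. All melanoblast libraries lay below the others, and the aged libraries lay on either side of the adult range. The difference between adult McSC and melanoblasts was 1.40 on the log2 scale (SE 0.551, adjusted p = 0.0518), and that between aged McSC and melanoblasts 1.82 (SE 0.623, adjusted p = 0.0238). The former passed in 11 of 18 settings, among them those without melanoblast replicate 3 (1.73, adjusted p = 0.0234) and without aged replicate 2 (1.49, adjusted p = 0.0367). The latter was 0.61 (adjusted p = 0.606) without aged replicate 1 and 1.55 (adjusted p = 0.0603) without melanoblast replicate 2. The 1383 olfactory and vomeronasal receptor genes gave a rough measure of background: their 95th percentile rose from 0.850 to 1.94 and 2.36 CPM across the groups. The Tnfrsf14 means of 0.866, 2.30 and 3.04 CPM were just above it, but melanoblast replicate 2, adult replicate 4 and aged replicate 2 were below that of their own group. The longest Tnfrsf14 transcript also holds a stretch of up to 174 bases that aligns to transcripts of 1127 other genes, so its level is uncertain.

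Ratios of members within a library do not depend on the scaling. The pairs were chosen after the values were seen, and the ratios are given with no test. Per length, Cd200 stood at 0.622 to 0.681 of Cd47 in melanoblasts, 0.491 to 0.635 in adult McSC and 0.234 to 0.322 in aged McSC. Cd24a stood at 0.0828 to 0.172, 0.405 to 0.596 and 0.452 to 0.718 of Cd47 in the same order. The ratio of Vsir to Cd276 was 0.0868 to 0.245 in melanoblasts, 0.9004 to 1.45 in adult McSC and 1.00 to 1.17 in aged McSC. The ratio of Pvr to Nectin3 was 0.80 to 1.24, 2.00 to 2.68 and 1.09 to 2.14. Aged libraries did not overlap adult libraries in the ratio of Cd200 to Cd47, and melanoblasts did not overlap adult McSC in the ratios of Cd24a to Cd47, Vsir to Cd276 and Pvr to Nectin3. As a share of the summed level per length of the 10 members, Cd200 averaged 26.3%, 19.4% and 10.1% in melanoblasts, adult McSC and aged McSC, Cd24a 5.78%, 17.1% and 21.5%, and Cd47 40.7%, 35.2% and 36.5%.

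**Figure D4:**
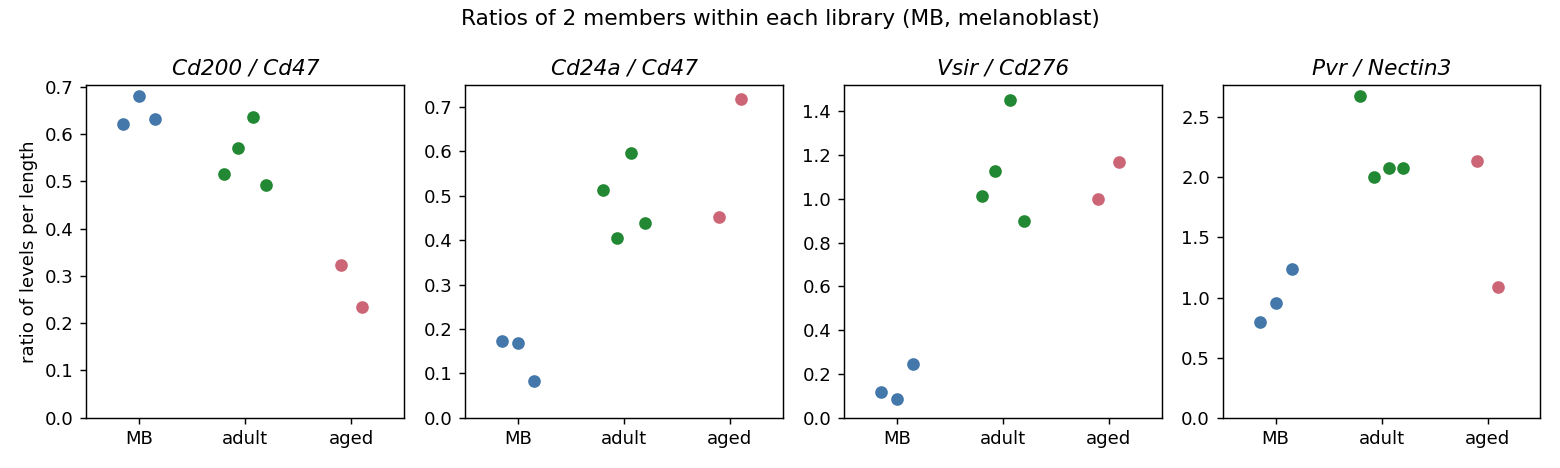
Ratio of the levels per length of 2 members within each library, for melanoblasts (MB), adult and aged McSC; axes start at 0 and each point is a library. The ratio of Cd200 to Cd47 is at 0.234 to 0.322 in the aged libraries, below all others, and that of Vsir to Cd276 is at most 0.245 in melanoblasts.

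Receptors and counter-ligands of the members were measured in the same sorted cells, with 17 of 18 listed genes tested and 10 of them above the receptor background. Between melanoblasts and adult McSC, 3 were higher and 2 lower (5 and 2 with factors from abundant genes), none was called between adult and aged McSC by edgeR (2 with an unadjusted p under 0.05, 0 called by DESeq2 and 1 by limma voom), and 4 were higher and 2 lower in aged McSC than in melanoblasts (10 and 2). Over all genes the shares higher and lower were 15.1% and 18.3%, 0.0532% and 0.25%, and 20.4% and 20.3% in the same order. Cd200r3, not above the receptor background in any group, was among the 3 higher in adult McSC and the 4 higher in aged McSC. Igsf11, an adhesion molecule reported as a VISTA partner, averaged 314.5 CPM in the melanoblast libraries and fell to 65.1 CPM in adult McSC (log2 -2.27, adjusted p = 1.12e-07) while Vsir rose. Sirpa, the receptor of CD47, fell from 177 to 59.8 CPM (log2 -1.57, adjusted p = 7.08e-05), and Thbs1, the gene of the CD47 ligand thrombospondin, rose from 39.9 to 109 CPM (log2 1.45, adjusted p = 0.000328). Of 10 melanocyte lineage markers, 8 were also lower in adult McSC than in melanoblasts. The part of the lineage content in the falls of Igsf11 and Sirpa was not tested. Tigit rose from 2.23 to 5.44 CPM (adjusted p = 0.0194), beside a rise of the receptor background from 0.850 to 1.94 CPM and T and NK cell marker sums of 2.76 to 7.78 CPM in melanoblasts and 8.77 to 23.1 CPM in adult McSC. The part of either in the Tigit difference was not tested.

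Of relatives and adhesion partners, 17 of 18 were tested and 15 of them were above the receptor background. In adult McSC 8 were higher and 2 lower than in melanoblasts (10 and 0 with factors from abundant genes). In aged McSC 0 were higher and 1 lower than in adult McSC (0 and 1). Against melanoblasts, 10 were higher and 2 lower in aged McSC (10 and 0). Over all genes the shares higher and lower were 15.1% and 18.3%, 0.0532% and 0.25%, and 20.4% and 20.3% in the same order. Of the 8 higher in adult McSC, Cd86, Vtcn1, Ceacam19 and Ceacam20 averaged 1.77, 1.99, 1.53 and 2.11 CPM there. These means were near the receptor background of 1.94 CPM. Ceacam18, not above that background in any group, was among the 10 higher in aged McSC. Afdn, which anchors nectins to actin, fell from 320.5 to 172 CPM between melanoblasts and adult McSC (log2 -0.90, adjusted p = 0.00189), and the value was -0.11 with factors from abundant genes. Cadm2, a nectin-like adhesion molecule, rose from 2.10 to 67.2 CPM (log2 5.0, adjusted p = 1.21e-10) and was at 6.24 CPM in aged McSC (log2 -3.42 against adult, adjusted p = 2.2e-05). Schwann cell markers moved the same way, with 5 of 9 higher in adult McSC than in melanoblasts and 4 of 9 lower in aged than in adult McSC, and their part in the Cadm2 difference was not tested.

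Of 11 genes of CD47 maturation and phagocytosis signals, 2 were higher and 4 lower in adult McSC than in melanoblasts (5 and 1 with factors from abundant genes), none was called between adult and aged McSC by edgeR (0 with an unadjusted p under 0.05, and 0 called by DESeq2 and by limma voom), and 1 was higher and 4 lower in aged McSC than in melanoblasts (7 and 1). Over all genes the shares higher and lower were 15.1% and 18.3%, 0.0532% and 0.25%, and 20.4% and 20.3% in the same order. Qpct, a glutaminyl cyclase whose relative Qpctl modifies CD47 for SIRP-alpha binding, fell from 107 to 22.4 CPM (log2 -2.26, adjusted p = 6.76e-08), and Qpctl was at 10.5 and 12.3 CPM (adjusted p = 0.478). With factors from abundant genes Qpct stayed lower (-1.41, adjusted p = 9.64e-06), but Qpctl was called higher in adult McSC (1.04, adjusted p = 0.0026). Melanocyte lineage markers were also lower in adult McSC (8 of 10), and the part of the lineage content in the fall of Qpct was not tested.

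**Figure D5:**
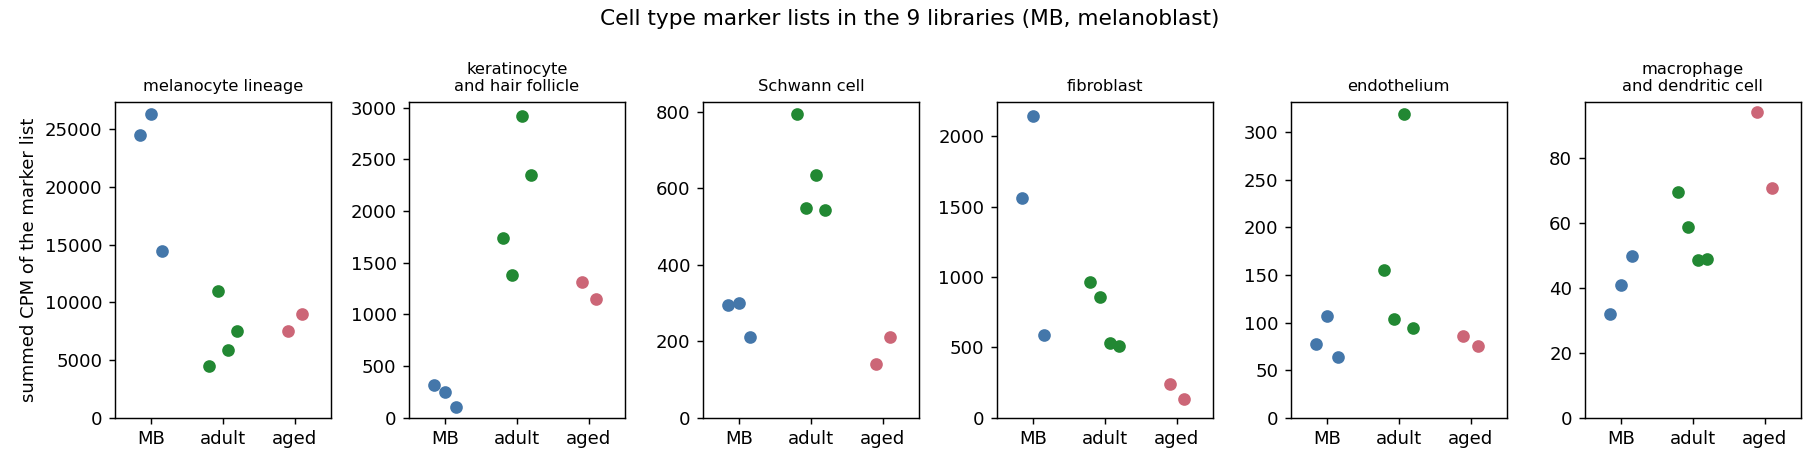
Summed CPM of 6 cell type marker lists in each library of melanoblasts (MB), adult and aged McSC, one point per library, axes from 0. The keratinocyte and hair follicle sum is at 106 to 315 CPM in melanoblasts and at 1382 to 2917 CPM in adult McSC, and the Schwann cell sum is lower in both aged libraries than in all adult libraries.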

How the data were processed

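Raw counts per Ensembl gene were deposited by the authors for 9 libraries, with no normalization. Per the labels' protocols, 20 ng of RNA was amplified to cDNA before library construction, so the counts are not molecule counts. The submitters' processing notes name build mm10, STAR 2.5.2, Trimmomatic 0.36, SAMtools 1.9, FastQC 0.11.8 and, of statistical tools, DESeq2 1.22.2. Counting program, annotation and strand use were not given in the sources used here, so reads of overlapping or near-identical genes may be shared. The GENCODE annotation matched 49326 of 49671 identifiers, and the other 345 held 0.047% of counts.

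Groups came from the sample titles. edgeR 4.0.16 in R 4.3.3 was run on all 9 libraries with TMM factors, filterByExpr, a group means model and the robust quasi-likelihood test, with Benjamini-Hochberg adjustment at 0.05 within each of 3 comparisons. It was tested on simulated data. Levels per length used exon unions. Shared sequence was searched with BLAST 2.17.0 (at least 90% identity over 100 bases). Alternatives included DESeq2 1.42.0 and limma 3.58.1 (voom).

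The members, gene lists and marker lists were chosen with earlier results of these data known. All 10 members are named, with up to 4 genes per list by smallest p among those above the olfactory and vomeronasal receptor background; only some of these are described. For likeness, the rule took the 3 coding genes of at least 10 CPM with the smallest root-mean-square log2 difference (prior count 2). Within groups, libraries differed beyond sampling noise and each was counted once.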

Additional observations from a re-analysis of the deposited data

Results flagged for a closer look

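Cd24a in adult replicate 3, at 64.9 CPM, lay apart from the other 3 adult libraries, at 45.8 to 49.0 CPM: its gap to the nearest was 0.831 of the range of the group, just past the limit used for 4 samples. It was the only one of 10 members to do so among the adult libraries, and chance gives about 1 such group in 20. Adult replicate 3 also had the highest sums of keratinocyte and hair follicle markers (2917 CPM) and endothelial markers (319 CPM) among the adult libraries, and their part in the Cd24a value was not tested. Without that library, the log2 fold change of Cd24a between adult McSC and melanoblasts was 1.25 (adjusted p = 0.0101).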

How the results depend on the processing

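Across 19 alternatives, 1 of them (leaving out melanoblast replicate 3 and adult replicate 2 together) chosen after seeing the data (adult replicate 1, which also lay apart, was left out only singly), the calls of Vsir and Cd24a in adult McSC against melanoblasts and of Vsir and Cd200 in aged McSC against melanoblasts held throughout. In adult McSC against melanoblasts, 6 members were higher with factors from abundant genes. The members lower numbered 0 with those factors, 1 with RLE factors, no filter, the stricter filter, DESeq2, the replicate block, no mitochondrial genes or 2 groups only, 5 with limma voom, 5 without both libraries, and 1 to 5 when a single library was left out. In aged against adult McSC, members lower numbered 0 to 1 when a library was left out, the 0 being without adult replicate 3, aged replicate 1 or aged replicate 2. In aged McSC against melanoblasts, 7 were higher and 1 lower with factors from abundant genes, 2 were lower with no filter, no mitochondrial genes or 2 groups only, 1 with the stricter filter, and 1 to 5 when a library was left out. Genes called in adult McSC against melanoblasts numbered 10676, or 6877 with the stricter filter, which tested fewer genes. In aged against adult McSC they numbered 97, but 45 with factors from abundant genes, 343 with no filter, 338 with DESeq2, 1416 with limma voom, 172 with the replicate block, 311 with 2 groups only, 278 without both libraries, and 13 to 303 when a library was left out. In aged McSC against melanoblasts they numbered 13005, or 7611 with the stricter filter, and 7410 to 16292 when a library was left out. Directions turned as follows, and the cause was not tested. With factors from abundant genes, adult McSC against melanoblasts gave Cd200 0.29, Cd47 0.52, Nectin3 0.24 and Ceacam1 0.19, and Cd47 was 0.18 with the stricter filter. In aged against adult McSC, Nectin2 was 0.25 when scaled on abundant genes, 0.17 with the stricter filter, 0.06 with the replicate block, 0.00 with 2 groups only and -0.44 to 0.32 when a library was left out. Nectin3 was 0.15 with factors from abundant genes and 0.05 after stricter filtering, Cd24a was 0.12 and 0.04 in the same order, and Cd24a ran from -0.57 to 0.17 and Tnfrsf14 from -0.88 to 1.10 when a library was left out. In aged McSC against melanoblasts, factors from abundant genes gave Cd47 0.39, Cd276 0.16, Nectin3 0.39 and Pvr 1.06, and Pvr was 0.05 with no filter, 0.64 with the stricter filter, 0.08 without mitochondrial genes, 0.05 with 2 groups only and -0.35 to 0.35 when a library was left out. The stricter filter did not test Tnfrsf14.

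Replicate numbers showed no clear pairing: same-numbered libraries of melanoblasts and adult McSC had correlations of -0.08, 0.20 and -0.04 in their deviations from group means. Those of different-numbered libraries of these groups ran from -0.24 to 0.28. So few correlations, of deviations centred within small groups, cannot settle whether libraries were paired. With the replicate block Cd200 remained lower in aged than in adult McSC (-1.55, adjusted p = 0.0027). The aged group has 2 libraries and the lowest depth, where a count of 3 corresponds to 0.183 and 0.238 counts per 1000000, so members that were not called with age may still differ. When 1 aged library was left out, the other was assumed to vary like the rest.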

Other observations

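The protein-coding genes closest in pattern over the 9 libraries to the 6 members that averaged at least 10 CPM were found among 8147 genes, by the root-mean-square difference of centred log2 CPM. For Cd200 these were Tgfbr2 (0.161), a TGF-beta receptor, Sh3pxd2a (0.193) and Ube2g2 (0.194), and for Cd47 they were Itm2b (0.081), Cask (0.085) and Ddx56 (0.096). Nectin3 was closest to Aftph (0.060), Tnrc6b (0.062) and Lmbrd1 (0.064), Ceacam1 to Uggt1 (0.067), Sh3pxd2b (0.084) and Zfp592 (0.094), and Pvr to Ccnl2 (0.103), Ptpn13 (0.158) and Taf1a (0.159). Cd24a had no neighbour as close: its nearest were F11r (0.237), the gene of a tight junction adhesion molecule, Gbp7 (0.273) and Jund (0.312). Vsir, Cd276, Nectin2 and Tnfrsf14 were below that level and were not compared. The libraries share their scaling and depth, so these distances describe these 9 libraries only. They were not scaled to how much each gene varies, so a member that varies more, such as Cd24a, can have larger distances.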
